A study of Mus musculus with 2 samples.

Results

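Cells that met a marker rule for loose connective tissue fibroblasts made up 852 of 15780 filtered cells in 2 single-cell libraries from mouse knee cartilage. They were 205 of 6533 in the library called pulse and 647 of 9247 in the library called trace. As described below, some of them had raised markers of other cell types, so the name does not hold for every member. The cells were chosen by their own counts. The filter asked for 500 or more detected genes, with no more than 10% of a cell's unique molecular identifiers (UMIs, each a counted RNA molecule) from mitochondrial genes. A member also had to show 2 or more of the 6 genes Pi16, Clec3b, Mfap5, Scara5, Dpt and Myoc, at most 1 of the 6 synovial lining genes Clic5, Col22a1, Pla1a, Rspo2, Megf10 and Sdk1, and fewer than 20 UMIs of the cartilage collagen gene Col2a1. The genes of this rule were therefore high or low in the chosen cells by construction, and all comparisons with other cells are descriptions without a test.

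The mice carried Procr-CreER and a tdTomato reporter. Procr encodes the protein C receptor, and its promoter drives a Cre recombinase that tamoxifen activates, so that cells with Procr at that time, and their descendants, carry the red reporter. Tamoxifen was given to both groups when the mice were 4 weeks old. Pulse cells were collected 2 days after it and trace cells 4 weeks after it. In both groups the labels describe sorting of cells negative for CD45, Ter119, CD31 and the dead-cell dye DAPI and positive for tdTomato. Each group was 1 library of 3 pooled mice, and the barcodes do not show which mouse a cell came from. With a single library in each group the replicate error is unknown, and pulse and trace were compared without a test. The 95% intervals given, exact Clopper-Pearson for shares and exact Poisson for counts and their ratios, cover counting error only. Chase time, the age of the mice and the library cannot be told apart.

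Loose connective tissue is the soft, vascularised tissue around vessels, under the synovial lining and between denser structures. Its fibroblasts secrete fibrillar collagens, small proteoglycans, elastic fibre proteins and hyaluronan. In many organs they include Pi16 and Dpp4 expressing cells of the vessel adventitia, often described by the surface proteins CD34 and Sca-1 (Ly6a), and in the joint they lie in the synovial sublining. Articular cartilage itself, the tissue named in the labels, holds chondrocytes whose matrix is built on collagen II and aggrecan, with lubricin (Prg4) at its surface.

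There were 6863 barcodes with 23306063 UMIs in pulse and 10423 with 40284041 in trace. Chosen cells were shallower than the others, with a median of 2053 against 2869 UMIs in pulse and 2955 against 3702.5 in trace. The libraries shared 16 barcodes, none of them among the chosen cells. The trace cells stood apart in ribosomal RNA-associated transcripts, which took 10.1% of the chosen cells' UMIs against 1.11% in pulse (8.81% and 0.957% in the other cells). The libraries also differed in sex-linked RNA, since Xist had 0 UMIs in the chosen pulse cells and 879 in the chosen trace cells, while Y-linked genes had 215 and 1. Sex therefore goes together with chase time here. Although the gate was CD45 negative, 301 filtered trace cells had 5 or more leukocyte markers, against 6 in pulse. The parts of these library differences in the results below were not tested.

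Clec3b, which encodes the secreted protein tetranectin, was the rule gene found most often. It had a UMI in 81.5% of the chosen pulse cells (75.5 to 86.5) and in 85.9% of the chosen trace cells (83.0 to 88.5), against 2.53% and 4.15% of the other cells. Scara5, a ferritin receptor, was found in 65.4% and 59.7%, and Dpt, the matrix protein dermatopontin, in 57.1% and 60.3%. Mfap5, a protein of elastic microfibrils, was found in 36.1% of the pulse and 55.2% of the trace cells. Pi16, the peptidase inhibitor that marks adventitial fibroblasts, was seldom detected at this depth, in 6.83% (3.78 to 11.2) and 15.5% (12.8 to 18.5). Myoc, which encodes the secreted glycoprotein myocilin, was found in 7.80% (4.53 to 12.4) and 31.4% (27.8 to 35.1). Of the pulse members 46.8% would not meet the rule without Clec3b, and of the trace members 24.3%. Without both Pi16 and Myoc 11 of 205 pulse members (5.37%) and 44 of 647 trace members (6.8%) would not meet it. Col14a1, a collagen on fibril surfaces and a marker of these cells outside the rule, was found in 28.3% of pulse and 47.4% of trace cells, against 1.47% and 2.14% of the other cells. Of the 6 lining genes Sdk1, a cell adhesion protein, was the one most often present, in 17.1% and 20.2% of the chosen cells.

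**Figure D1:**
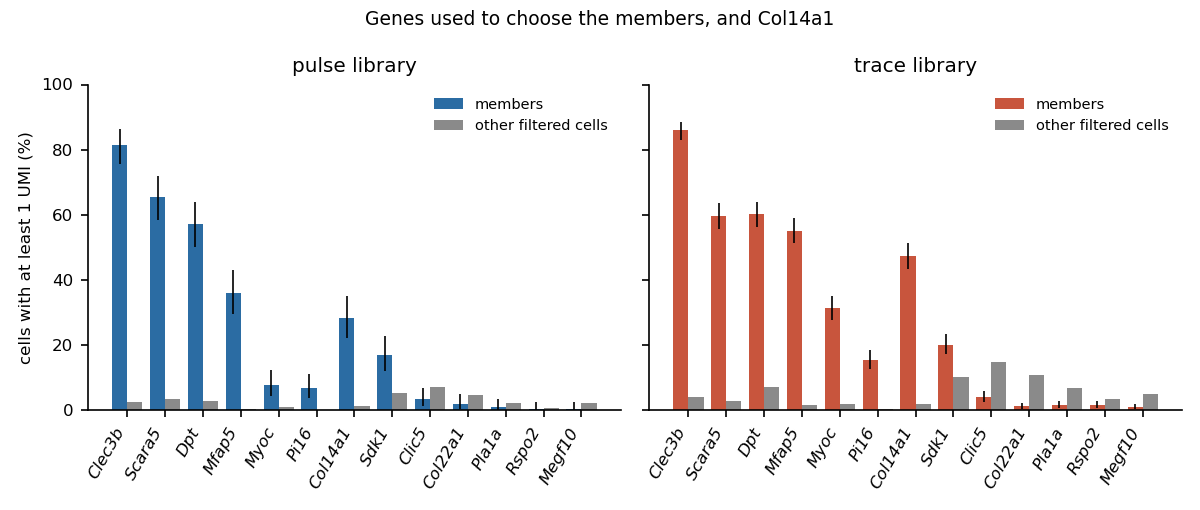
Share of cells with at least 1 UMI (percent) of each rule gene and of Col14a1, in the chosen cells (members, coloured, with exact 95% intervals) and in the other filtered cells (grey), for the pulse library on the left and the trace library on the right. Clec3b is the gene found most often in both libraries, Pi16 and Myoc are found in fewer than 40% of members, and the 6 lining genes on the right are low by the rule.

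In the annotation of build GRCm38 (mm10; GENCODE M21) the rule genes that mark these cells lie apart from each other. Clec3b spans chr9:123150946-123157432, Scara5 spans chr14:65666403-65764826, Mfap5 spans chr6:122505845-122529290 and Pi16 spans chr17:29317680-29330593, all on the plus strand. Dpt (164796644 to 164824266) and Myoc (162639155 to 162649693) both lie on the plus strand of chromosome 1. Col14a1 spans chr15:55307750-55520803 and Procr spans chr2:155751117-155755471, also on the plus strand. The values given are sums over each whole gene.

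Cells at the edge of the rule differed in level from those well inside it. In pulse, 62.4% of the chosen cells had exactly 2 of the 6 genes, against 34.2% in trace. From here on a level is the UMIs of a gene per 1000000 UMIs of the summed cells (CPM). Cells with 1 of the 6 genes, just outside, had 41.8 CPM of Cd34 in pulse and 23.5 in trace, and cells with exactly 2, just inside, had 153 and 83.7. Cells with 4 of the 6 genes had 508 and 311 CPM. Col14a1, Ly6a and Dpp4 were likewise lower just outside than just inside, at 47.6 and 119 CPM for Col14a1 in pulse and 74.9 and 196 in trace. Sparc, which encodes the matrix protein osteonectin, had the opposite order, at 18190 CPM just outside and 13170 just inside in pulse, and 5243 and 4647 in trace. At the lining edge, cells with 2 lining genes that the rule left out had 13670 CPM of Prg4 in pulse and 9774 in trace, and kept cells with 1 lining gene had 3010 and 4531. The 15 pulse cells left out this way had 631 CPM of Cd34 and 115 of Dpp4, above the 275 and 41.7 of the kept pulse cells with 1 lining gene. They held 34885 UMIs in all, so their Dpp4 level rests on few UMIs. In trace the 66 such cells had 169 and 20.4 CPM, below the 242 and 42.0 of the kept cells. The rule thus left out some pulse cells with a high level of Cd34. At the cartilage edge, kept cells with 10 to 19 Col2a1 UMIs were few (8 in pulse and 15 in trace). They had no Dpp4 UMI among 44864 UMIs in pulse and 95891 in trace, too few to show a low level. The group is thus a range in which a large share of the cells lies near its lower bound.

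The chosen cells were 3.14% (2.73 to 3.59) of the filtered pulse cells and 7.0% (6.49 to 7.54) of the filtered trace cells. When every cell was first thinned to 2000 UMIs and shallower cells were left out, the shares were 1.68% and 5.85%. Requiring 3 of the 6 genes gave 1.18% and 4.61%. The share was higher in trace under every alternative tried. It depends on the sort and on how much of each tissue entered the digest, and their part in the difference was not tested. The other stromal cells of the same libraries, synovial lining cells and cells with Npy and Angptl7, were 4.58% and 2.91% of pulse and 10.1% and 2.67% of trace.

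Beyond the rule genes, the chosen cells led in matrix, complement, chemokine and growth factor genes. Of 6062 genes at 20 CPM or more in the members or the other cells, 396 (6.53%) were at least 2-fold higher in the members in both libraries. The 20 leading genes by the lower of both libraries' ratios were Mfap5, Clec3b, Sfrp4, Scara5, Col14a1, Aspn, Ccl7, Fbln2, Fndc1, Adgrd1, C3, Cd34, Ccn3, Nox4, Dpt, Igfbp6, Serpinf1, Col3a1, Fstl1 and Celf2. For 4 of them (Mfap5, Clec3b, Scara5 and Dpt) the rule itself set this. Because the members were chosen on genes of the same cells, no count over them is used as support.

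**Figure D2:**
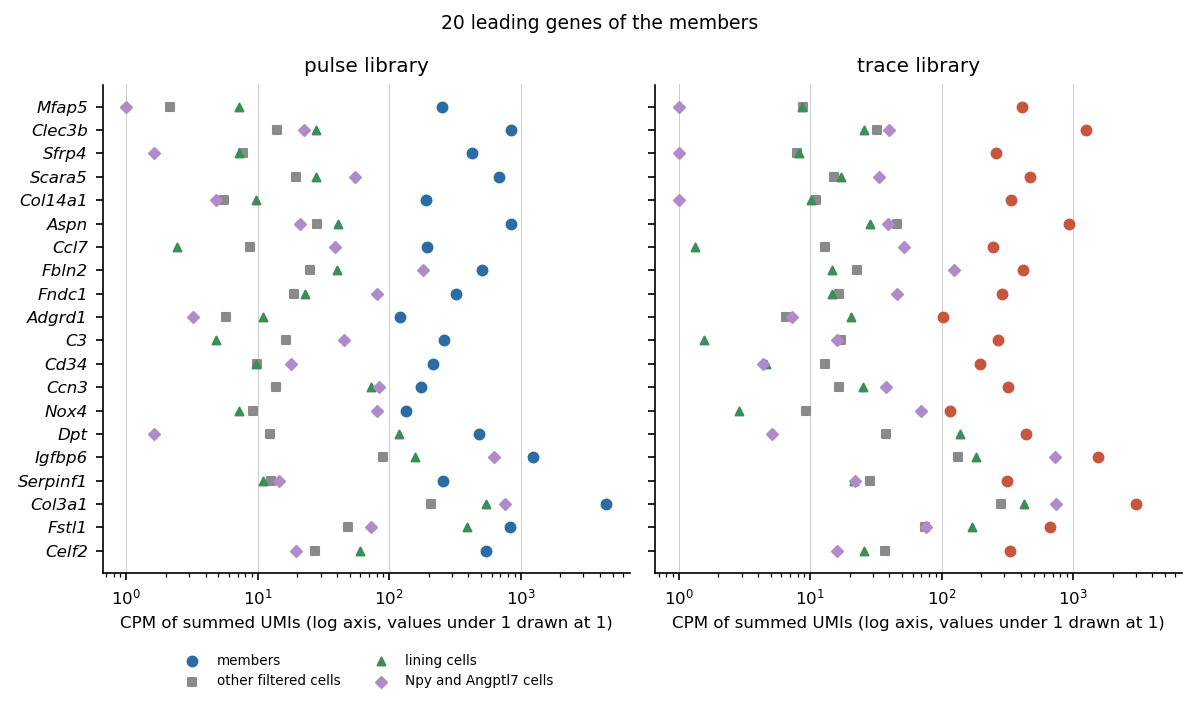
Level of the 20 leading genes in CPM of summed UMIs on a log axis, in the members (circles), the other filtered cells (grey squares), lining cells (green triangles) and Npy and Angptl7 cells (violet diamonds), for pulse on the left and trace on the right, with 1 library each. The members have the highest level of all 20 genes in both libraries.

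Genes described in adventitial progenitor fibroblasts, for surface, secreted and intracellular proteins, were the first group. Of 19 listed genes at the floor, 15 were at least 2-fold higher in the members in both libraries, where 6.53% of all genes at the floor were. The same share belongs beside each list count of higher genes in the members below. The lists were chosen with earlier results of these data known, so these counts are descriptions. Cd34 had 213 CPM in pulse members and 195 in trace members, against 9.88 and 13.1 in the other cells, a ratio of 21.6 (17.0 to 27.3) and 14.9 (13.1 to 17.0). Both comparison groups of stromal cells were low in Cd34, the lining cells at 9.65 and 4.64 CPM and the Npy and Angptl7 cells at 17.7 and 4.37. Ly6a had 574.5 and 673 CPM in the members, but it was also high in lining cells, at 475 and 378.5 CPM. Cd55, the complement decay-accelerating factor, and Sema3c, a secreted guidance protein, were as high or higher in lining cells (403 and 549 CPM in pulse) than in the members (334 and 422.5). Dpp4, a dipeptidyl peptidase, was low everywhere, with 27.6 and 32.5 CPM in the members, 0 UMIs in pulse lining cells and 1.55 CPM in trace lining cells. Cd34 and Dpp4 were thus low in lining cells, which were defined as having at most 1 of the 6 fibroblast genes, while Ly6a, Cd55 and Sema3c were not. Aldh1a3, from the same list, was lower in the members than in the other cells in both libraries, at 13.8 against 50.5 CPM and 3.95 against 30.1.

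Among collagens, 6 of 13 were at least 2-fold higher in both libraries (Col3a1, Col5a1, Col5a2, Col5a3, Col8a1 and Col14a1). Col3a1, the fibrillar collagen of loose tissue, had 4430 CPM in pulse members and 2996 in trace members, against 209 and 283 in the other cells. Lining cells had 544 and 420.5 CPM of it. Col1a1, a chain of the main fibrillar collagen, had 3088 CPM in pulse and 1787 in trace members. Its ratio over the other cells was 11.4 (10.8 to 12.0) in pulse but 1.58 (1.53 to 1.64) in trace, where the other cells were at 1128 CPM against 271 in pulse. Col6a1 was near equal in members and other cells (705 and 724 CPM in pulse), and Col12a1 was lower in the members.

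Elastic fibre genes followed, with 7 of 11 at least 2-fold higher. Fbln2, fibulin 2, had 511 and 415 CPM in the members against 24.8 and 22.8 in the other cells. Fbn1, the microfibril protein fibrillin 1, had 288 and 338 CPM, and Ltbp4, which tethers latent TGF-beta to microfibrils, had 237 and 344. Efemp1 and Fbln1 were lower in level, with ratios of 25.7 (12.7 to 50.4) and 10.3 (6.94 to 15) over the other cells in pulse, against 20.6 (17.7 to 23.9) for Fbln2. Lox, which cross-links elastin and collagen, had the opposite order, at 132 and 64.5 CPM in the members against 618 and 226 in the other cells. Elastin itself (Eln) was near the limit of detection, with 5 UMIs in pulse members and 12 in trace members.

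Of the small leucine-rich proteoglycans, which bind collagen fibrils, 5 of 10 were at least 2-fold higher (Lum, Ogn, Podn, Aspn and Ecm2). Aspn, asporin, had 841 and 931 CPM in the members against 28.2 and 45.9 in the other cells. Dcn, decorin, was the most abundant of the list at 8170 and 8567 CPM, yet the other cells also had 4390 and 7534, and the Npy and Angptl7 cells had 19110 and 26650. Omd was lower in the members in both libraries. Matrix proteases and inhibitors gave 7 of 14 higher, among them Mmp2, a gelatinase, at 195.5 and 328 CPM against 25.3 and 37.2. Mmp3, stromelysin, and the inhibitor Timp1 were lower, with Mmp3 at 365 and 201 CPM against 893 and 1131. In the hyaluronan list 5 of 8 were higher (Has1, Ugdh, Cd44, Tnfaip6 and Vcan). The synthase gene Has1 was higher in lining cells (479 and 568 CPM) than in the members (349 and 389), whereas Vcan, versican, was higher in the members (440 and 313 CPM) than in lining cells (76.0 and 36.6).

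Of 7 complement genes 6 were at least 2-fold higher in the members. C3, the central complement component, had 261 and 267.5 CPM in pulse and trace members, against 16.4 and 17.1 in the other cells and 4.83 and 1.55 in lining cells. Serping1, the C1 inhibitor, had 324 and 389 CPM, while Cfb, factor B, had 29.6 and 28.1 CPM and 0 UMIs in lining cells of either library. C4b was the exception, at 122 and 142 CPM in the members against 69.6 and 181 in the other cells. Among chemokines and cytokines 4 of 8 were raised, Ccl2 and Ccl7, which attract monocytes, Cxcl12, which retains leukocytes and progenitors, and Csf1, the macrophage growth factor. Ccl7 had 194 and 245 CPM, but it was carried by 16.1% and 11.0% of the members, so a minority of cells held its UMIs.

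In the insulin-like growth factor system 4 of 5 genes were raised. Igf1 had 109 and 85.1 CPM in the members against 6.07 and 6.24 in the other cells, and 2.41 and 1.10 in lining cells. The binding protein gene Igfbp6 had 1250.0 and 1536 CPM against 89.0 and 133. Igfbp5 was high in members (1155 and 1306 CPM) and in lining cells (1612 and 1405). Sfrp4, a secreted Wnt antagonist, had 426 and 257 CPM in the members and under 9 CPM in the other cells and lining cells of both libraries, though only 24.4% and 25.0% of the members had a UMI. Of the growth factor receptors and surface genes 4 of 10 were raised (Pdgfra, Pdgfrb, Thy1 and Lepr). Pdgfra had 257 and 478 CPM in members and 244 and 424 in lining cells. Pdgfrb had 77.0 and 157 CPM in members and 16.9 and 24.1 in lining cells. Thy1, a surface protein of synovial sublining fibroblasts, had 23.7 and 36.4 CPM in members and 0 and 1.10 CPM in lining cells.

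Among transcription factors 7 of 16 were raised, Ebf1, Ebf2, Osr2, Prrx1, Twist1, Twist2 and Meox2. Ebf1, a factor of stromal and adipogenic precursors, had 1639 and 1163 CPM in members, 936 and 888 in lining cells and 101.5 and 84.4 in Npy and Angptl7 cells. Ebf2 had 61.2 and 113 CPM in members, against 4.83 and 12.1 in lining cells. Cartilage genes were lower in the members than in the other cells, with 6 of 6 superficial and 12 of 13 deeper chondrocyte markers at least 2-fold lower, where 6.45% of all genes at the floor were. Col2a1, one of the deeper markers, was low by the rule. Prg4 had 2736 and 3500 CPM in the members, against 6693 and 21030 in the other cells and 29880 and 32560 in lining cells. Both libraries thus held a great deal of Prg4 RNA, and what part of the members' Prg4 came from free RNA was not tested.

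Clustering of the 852 members by 1500 variable genes gave 6 sub-clusters. They are described by their leading genes, which the clustering used. Sub-cluster 1 held 61 pulse and 232 trace cells, sub-cluster 2 held 49 and 194, sub-cluster 3 held 23 and 114, sub-cluster 4 held 50 and 52, sub-cluster 5 held 21 and 45, and sub-cluster 6 held 1 and 10. Several of the genes that define the sub-clusters also differed in level between the libraries, so the shares are given only as a description.

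**Figure D3:**
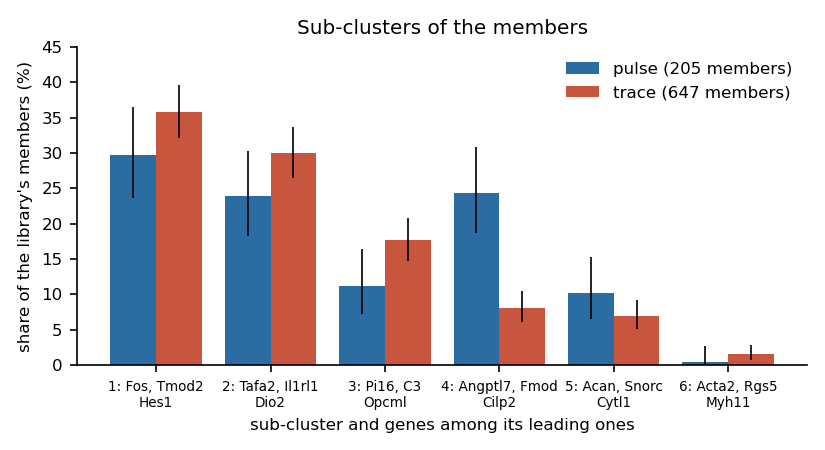
Share of each library's members (percent, with exact 95% intervals) in each of 6 sub-clusters, with 3 of the 10 leading genes of each written under it, for pulse (blue, 205 members) and trace (red, 647 members). Sub-cluster 4 holds 24.4% of pulse and 8.04% of trace members, and sub-clusters 1 to 3 hold the larger part of both.

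Sub-cluster 1 was led by Fos, Tmod2, Hes1, Hmcn1, Id3, Lysmd2, Fosb, Tmem100, Maf and Egr1. Of the immediate early and heat shock list, which responds within minutes to stimulation and to tissue dissociation, 12 of 14 genes were at least 1.5-fold above the other members, where 20.0% of all genes at the floor were. Fos had 702 CPM in its pulse cells and 2056 in its trace cells, against 135 and 62.6 in sub-cluster 2. Id3, a target of BMP signals, had 1009 and 1154 CPM, against 222 and 144 in sub-cluster 2. Fibrillar collagens were high there too, with Col3a1 at 7638 and 4220 CPM, against 906 and 442 in sub-cluster 3. Of the adventitial list 10 of 22 genes were raised, among them Cd34 at 468 and 335 CPM. When the members were clustered again without the immediate early and heat shock genes, 271 of these 293 cells still fell in 1 cluster, so the grouping did not need those genes.

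Sub-cluster 2 was led by Ngp, Camp, Cxcl5, S100a8, S100a9, Tafa2, Il1rl1, Dio2, Cxcl2 and Ptx3. The neutrophil genes at the head of that list came from few cells, Ngp from 4 and S100a8 from 8 of 243, and Cxcl5 from 4. Of the rest, Tafa2 was found in 20 cells and Il1rl1, the receptor of interleukin 33, in 16. No leading gene was thus shared by most of its cells. Its listed genes that were raised over the other members included Ugdh, Hmox1, Gfpt2, Pdgfra and Cxcl1. The share of all genes raised in sub-cluster 2 was not counted, so these are values of single genes. Hmox1, haem oxygenase, had 2958 CPM in its pulse and 1957 in its trace cells, against 126 and 65.5 in sub-cluster 1, but sub-cluster 3 was also high, at 3003 and 1523. Ugdh, which makes the sugar for hyaluronan, had 1904 and 2187 CPM, against 342 and 418 in sub-cluster 1. It was given no name.

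Sub-cluster 3 was led by Pi16, C3, Opcml, Tnfsf9, Arl4d, Calcrl, Il4ra, Car8, Cfb and Sdk1. Pi16 had 440 CPM in its pulse and 1138 in its trace cells, against 18.0 and 108 in sub-cluster 1 and 0 and 12.3 in sub-cluster 2. C3 had 2201 and 1541 CPM, more than 10 times the level of any other sub-cluster from 1 to 5 in the same library. Of the adventitial list 11 of 22 were raised, of complement 6 of 11 and of elastic fibre genes 8 of 16, where 16.5% of all genes at the floor were. Col1a1 was lowest here among sub-clusters 1 to 5, at 492 and 460 CPM against 4503 and 2438 in sub-cluster 1. Pi16 and C3 were thus carried by the cells with little type I collagen RNA, while sub-cluster 1 had much of it.

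Sub-cluster 4 was led by Angptl7, Fmod, Cilp2, Thbs4, Ptprz1, Slurp1, Uaca, Npy, Avpi1 and Egln3. All 3 markers of the Npy and Angptl7 cells and 4 of 5 tendon markers were raised (Scx, Mkx, Thbs4 and Kera), where 16.4% of all genes at the floor were. Tnmd, a defining marker of tendon cells, had 0 UMIs there in both libraries. None of the 22 adventitial genes was raised, and Cd34 had 76.7 and 32.2 CPM. The rule kept these cells, which had Scara5 (956 and 447 CPM) and Clec3b (642 and 1290 CPM), while Angptl7 and Npy, 2 of their leading genes, define another stromal population of the series.

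Sub-cluster 5 was chondrocyte-like, with 11 of 14 deeper and 6 of 6 superficial chondrocyte markers raised, where 20.8% of all genes at the floor were. Its Acan level was 2015 CPM in pulse and 2254 in trace. Its median of 5794 UMIs was above that of sub-clusters 1 to 4 (2086 to 3609). Of its cells, 76.2% in pulse and 75.6% in trace were among the 5% of each library with the highest Scrublet doublet score, against 0% to 3.61% in sub-clusters 1 to 4. Sub-cluster 6, with 11 cells, was mural-like, with 9 of 10 markers of vessel wall cells raised, where 43.2% of all genes at the floor were. At 35324 UMIs in all 1 UMI there is 28.3 CPM and passes the floor, and 8 of the 10 markers had 3 or more UMIs. Of the 7 markers of loose connective tissue fibroblasts, 4 were raised in sub-cluster 1, 5 in sub-cluster 3, 1 (Scara5) in sub-cluster 2, 1 (Mfap5) in sub-cluster 6 and none in sub-clusters 4 and 5. All of these markers except Col14a1 are rule genes, so the counts describe chosen cells and do not test the label. Col14a1, outside the rule, was raised in sub-clusters 1 and 3 only. Of 9 lining markers 2 were raised in sub-cluster 2, Tspan15 and the rule gene Clic5. Without the share of all genes raised there, this count is not read as a result. Cd34 was 203 CPM in pulse and 113 in trace there, so the markers do not settle what sub-cluster 2 is. Sub-clusters 1 to 3 held 133 pulse and 540 trace cells. They were 2.04% of pulse and 5.84% of trace filtered cells. Values for them are given beside those of all members below.

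In the clustering at a resolution of 0.5, Procr, the gene whose promoter drives the Cre, was high in sub-clusters 2 and 3 and low in the others. In pulse its level was 126 CPM (68.9 to 212) in sub-cluster 1, 1025 (839 to 1239) in sub-cluster 2 and 1476 (1118 to 1912) in sub-cluster 3. In trace the levels in the same order were 73.2 (54.0 to 97.0), 648 (591 to 709) and 424.5 (352 to 508). Sub-clusters 2 and 3 were thus above sub-cluster 1 in both libraries with intervals that did not overlap, while the intervals of sub-clusters 2 and 3 overlapped in pulse and not in trace. Sub-cluster 4 had 139.5 and 82.2 CPM, and sub-cluster 5 had 73.6 and 135. Single cells held much of it, since 1 cell of pulse sub-cluster 2 held 27 of 106 Procr UMIs and 1 of pulse sub-cluster 3 held 23 of 57. Clustering the members without Procr and the reporter gene gave 129, 947 and 1515 CPM in pulse and 71.3, 622 and 537 in trace, with the intervals of the last 2 overlapping in trace. At a resolution of 0.8 the cluster with the most Pi16 had 220 CPM of Procr in pulse (71.3 to 513, 5 UMIs). Its pulse interval overlapped that of sub-cluster 1, and in trace it had 408 CPM (312 to 526). At a resolution of 0.3 the cluster with the most Pi16 had 157 CPM (99.3 to 235) in pulse and 125 (103 to 151) in trace. The Procr level of the cells with Pi16 thus depended on the resolution.

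Over all members Procr had 405 CPM (351 to 464) in pulse and 312 (290 to 336) in trace, against 44.7 and 99.9 in the other cells and 486 and 293 in lining cells. A Procr UMI was seen in 33.2% of pulse members (26.8 to 40.1) and 31.8% of trace members (28.3 to 35.6). In the Npy and Angptl7 cells, of greater median depth (2934.5 and 4977 UMIs), the share was 9.47% and 19.4%. Leukocytes with 5 or more of 12 markers, taken as the background and numerous in trace only, had a Procr UMI in 6.31% of 301 cells at a median of 2465 UMIs. After thinning each cell to 2000 UMIs the shares in members were 33.0% and 27.6%, and in these leukocytes 5.41%.

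Reporter RNA (Tdtomato) was sparse. It was found in 11.7% of pulse members (7.65 to 16.9) and 26.7% of trace members (23.4 to 30.3), against 10.7% and 21.9% of the other cells. Its level was 61.2 CPM (41.6 to 86.9) and 112 (98.9 to 127), against 35.9 and 76.7 in the other cells, so the ratio of trace over pulse was 1.83 (1.26 to 2.76) in the members and 2.14 in the other cells. The leukocytes of the trace library had 25.7 CPM (17.1 to 37.1), and 5.32% of them had a reporter UMI. The pulse library held 6 such leukocytes with no reporter UMI, which is too few to give a background there. In trace, sub-cluster 1 had 174 CPM of the reporter (143 to 209), sub-cluster 2 had 91.2 (70.7 to 116) and sub-cluster 3 had 128 (90.0 to 178). Sub-cluster 1 was above sub-cluster 2 on this scale, with intervals that did not overlap. It was also shallower, with a median of 2573.5 against 3294 UMIs. Per cell it had 0.491 reporter UMIs (0.405 to 0.59) against 0.345 (0.268 to 0.439), and 31.0% (25.1 to 37.4) against 23.2% (17.5 to 29.8) of its cells had one. These intervals overlapped, so no order is read. In pulse the 3 intervals overlapped, with 7, 9 and 2 UMIs in sub-clusters 1 to 3.

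**Figure D4:**
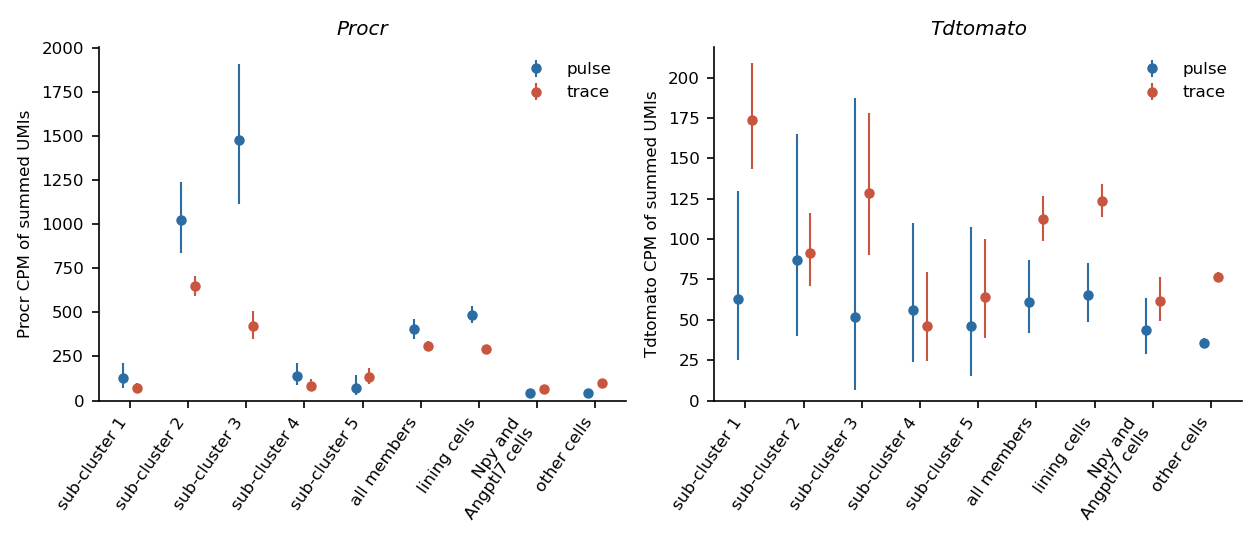
Level of Procr (left) and of the reporter Tdtomato (right) in CPM of summed UMIs, for sub-clusters 1 to 5, all members, lining cells, Npy and Angptl7 cells and the other cells, in pulse (blue) and trace (red), 1 library each, with exact 95% Poisson intervals. Procr stands high in sub-clusters 2 and 3 and low in sub-cluster 1 in both libraries, whereas the trace reporter level is 174 CPM in sub-cluster 1 and 91.2 CPM in sub-cluster 2, an order whose intervals overlap when it is counted per cell.

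Myoc and Pi16 are rule genes, so their levels in pulse and trace members describe cells chosen partly on them. Over all members Myoc had 61.2 CPM (31 UMIs) in pulse and 486 (1108 UMIs) in trace, a ratio of 7.94 (5.56 to 11.7). In sub-clusters 1 to 3 it had 67.2 and 546 CPM, a ratio of 8.13 (5.05 to 14), and in the other cells 6.11 and 11.5 CPM, a ratio of 1.87 (1.54 to 2.29). It was higher in trace in each of sub-clusters 1 to 5, for example at 81.1 and 424 CPM in sub-cluster 1 and 181 and 1623 in sub-cluster 3. Pi16 had 45.4 CPM in pulse members and 179 in trace members, a ratio of 3.95 (2.60 to 6.30), and 3.18 (2.01 to 5.34) in sub-clusters 1 to 3. When the rule asked for 2 of the other 4 genes only, 194 pulse and 603 trace cells remained. In these cells, chosen without either gene, Myoc had 23.1 CPM (11 UMIs) in pulse and 417.5 (895 UMIs) in trace, a ratio of 18.1 (10 to 36.3). Pi16 had 44.1 and 163 CPM there, a ratio of 3.69 (2.38 to 6.03). Both were thus higher in the trace library with and without their use in the rule. Trace members were deeper than pulse members, with a median of 2955 against 2053 UMIs. Neither Myoc nor Pi16 was among the named genes whose direction turned after thinning to 2000 UMIs. The part of depth in the size of these ratios was not tested.

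A floor of 20 CPM in either library left 6612 genes. Trace levels were at least 2-fold above pulse for 208 of them (3.15%) and at least 2-fold below for 879 (13.3%), and a list whose count is near these shares is not read as a result. The median ratio over all genes was -0.30 on the log2 scale, and once every ratio was divided by the median ratio, 432 genes were higher and 448 lower. That division centres the ratios, so its near-equal counts do not show where the excess of lower genes comes from. Totals without ribosomal RNA-associated and mitochondrial transcripts gave 339 higher and 694 lower genes. The part of the scaling in the excess was not tested, and the ratios below are not rescaled unless stated. In sub-clusters 1 to 3, 331 of 6617 genes (5.0%) were higher and 1000 (15.1%) lower. In the other cells 230 and 594 of 6625 genes were past 2-fold, with a median of -0.20. The 15 highest ratios included S100a9, S100a8, Ngp and Camp, genes of neutrophils, and 5 genes that were also more than 4-fold higher in the other cells, Cmss1, Gphn, Lars2, Cdk8 and Camk1d. Of these, Cmss1, Gphn, Lars2 and Camk1d were counted among the ribosomal RNA-associated transcripts described above. Those transcripts took 1.11% of the UMIs of pulse members and 10.1% of those of trace members. The ratios of these 4 genes are part of that library difference. Cmss1 had 851 and 10190 CPM in members and a ratio of 12.0, the same as in the other cells. Xist, at 0 UMIs in pulse, was at least 65.1-fold higher in trace when its pulse count was set to 3 UMIs. The remaining ones were Myoc, Tnfsf9, Zfas1, Pi16 and Jarid2.

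Tnfsf9, the ligand of the T cell receptor CD137, had 21.7 CPM in pulse members and 113 in trace members, a ratio of 5.19 (2.85 to 10.5), against 1.51 in the other cells. Its trace level was 549 CPM in sub-cluster 3 and 29.0 in sub-cluster 1. Jarid2, a chromatin regulator, had a ratio of 3.71 (3.01 to 4.61), and the other cells had the same within their intervals at 3.72. The 15 lowest ratios were those of the Y-linked genes Ddx3y and Uty, of Msmp, and of Daglb, Ptprz1, Ldlrad3, Icam1, Meox2, Hdac9, Sox9, Plk2, Slc7a2, Has2os, Ap3m1 and Pde4d. Of the 254 Msmp UMIs in pulse members, 1 cell held 249, and without the cell of most UMIs in each library the difference was -0.99 on the log2 scale. Daglb had the same ratio in members (0.125) and in the other cells (0.125).

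Meox2, a homeobox factor of mesenchymal cells, had 109 CPM in pulse members and 25.4 in trace members, a ratio of 0.234 (0.159 to 0.345). The ratio was 0.216 (0.135 to 0.348) in sub-clusters 1 to 3, 0.148 in lining cells and 0.405 (0.352 to 0.465) in the other cells. Sox9, the chondrocyte factor, had 851 and 201 CPM, a ratio of 0.236 (0.207 to 0.270), with 0.347 in sub-clusters 1 to 3 and 0.40 in the other cells. Of the 16 transcription factors at the floor 3 were past 2-fold, all lower (Meox2, Klf4 and Creb5), near the share of all genes, with a list median of -0.35. Creb5, a regulator of lubricin, had 1080 and 435 CPM, a ratio of 0.402 (0.362 to 0.448) in members and 0.682 (0.667 to 0.697) in the other cells. Klf4 fell short of 2-fold in sub-clusters 1 to 3, at 0.551, and on the log2 scale after division by the median ratio, at -0.91. Ebf1 had ratios on both sides, 0.709 (0.656 to 0.768) in members and 2.78 (2.67 to 2.90) in the other cells.

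Small leucine-rich proteoglycans were the matrix list with the most genes past 2-fold upward. Of 9 at the floor 3 were higher in trace and none lower, and the list median was 0.24. Fmod, fibromodulin, had 88.8 CPM in pulse and 256 in trace members, a ratio of 2.88 (2.13 to 4.00), against 0.524 in the other cells. Sub-cluster 4 held most of this, at 230 and 1651 CPM. In sub-clusters 1 to 3 Fmod had 5 pulse UMIs and a ratio of 2.39 (0.984 to 7.58). Ogn, mimecan, had 90.8 and 231 CPM, a ratio of 2.54 (1.88 to 3.51), and Lum, lumican, had 203 and 420 CPM, a ratio of 2.06 (1.68 to 2.55). Without sub-clusters 4 to 6 both were under 2-fold, at 1.71 (1.20 to 2.5) and 1.64 (1.29 to 2.11). In the other cells their ratios were 2.41 and 2.26.

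Among the 13 collagens none was past 2-fold in the members, and the list median was -0.09. Col1a1 had a ratio of 0.579 (0.546 to 0.614) in the members and 4.16 (4.05 to 4.27) in the other cells, and Col3a1 had 0.676 and 1.35. Col14a1 had 189.5 CPM in pulse and 337 in trace members, a ratio of 1.78 (1.44 to 2.22). Of the 12 elastic fibre genes at the floor Efemp2 and Lox were lower in trace and none was higher, with a list median of 0.46. Lox had a ratio of 0.487 (0.363 to 0.661) over all members but 1.03 (0.507 to 2.35) in sub-clusters 1 to 3, and sub-cluster 5 held 42 of the 67 pulse UMIs. Of the 18 adventitial, 14 protease, 7 complement and 5 insulin-like growth factor genes at the floor none was past 2-fold, with medians of 0.17, -0.08, 0.21 and -0.22. Cd34 had a ratio of 0.913 (0.738 to 1.14), C3 of 1.03 (0.849 to 1.25) and Igf1 of 0.783 (0.578 to 1.08).

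In the hyaluronan list 1 of 7 genes was past 2-fold. Tnfaip6, which transfers heavy chains onto hyaluronan and is induced by inflammation, had 253 CPM in pulse and 82.9 in trace members, a ratio of 0.328 (0.261 to 0.414). It was 0.227 (0.177 to 0.291) in sub-clusters 1 to 3, where each sub-cluster was lower in trace, and 0.816 (0.755 to 0.882) in the other cells. One pulse cell held 32 of the 128 UMIs. Ugdh had 853 and 1337 CPM, a ratio of 1.57 (1.42 to 1.74).

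Of 20 genes in the BMP and TGF-beta list at the floor Bmp2, Bmp5, Bmp6 and Inhba were past 2-fold down and Id2 up, with a list median of 0.00. That is 4 of 20 lower, where 13.3% of all genes were, so the values below are of single genes and not of the list. Bmp6 had 1137 CPM in pulse and 325 in trace members, a ratio of 0.286 (0.256 to 0.320), and 0.432 (0.343 to 0.548) in sub-clusters 1 to 3. Bmp2 had 809.5 and 245 CPM, a ratio of 0.302 (0.266 to 0.344), but 0.546 (0.406 to 0.744) in sub-clusters 1 to 3. Inhba, the activin A chain, had a ratio of 0.401 (0.335 to 0.481) in members and 0.370 (0.260 to 0.536) in sub-clusters 1 to 3, against 1.00 (0.986 to 1.02) in the other cells. Bmp2 and Bmp5 were lower by a like ratio in the other cells, at 0.374 and 0.368. The highest levels of Bmp2 in the members were in sub-cluster 5, at 2779 CPM in pulse and 1031 in trace. Id2, an inhibitor of differentiation factors, had 118.5 and 276 CPM, a ratio of 2.33 (1.79 to 3.09) in members and 2.13 (2.06 to 2.21) in the other cells.

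Of the 4 Wnt modulators at the floor only Wnt11 was past 2-fold, with 11.8 and 35.1 CPM and a ratio of 2.96 (1.30 to 8.31) that rests on 6 pulse UMIs. Sfrp4 had 426 and 257 CPM over all members, a ratio of 0.603 (0.515 to 0.708), and 782 and 325 CPM in sub-clusters 1 to 3, a ratio of 0.415 (0.352 to 0.491). Among the 10 receptors at the floor Pdgfrb was higher and Egfr and Pdgfrl lower. Pdgfrb had a ratio of 2.04 (1.46 to 2.92), against 2.06 (1.81 to 2.35) in the other cells. Egfr had 503 and 237 CPM, a ratio of 0.470 (0.405 to 0.548), and 0.338 (0.283 to 0.404) in sub-clusters 1 to 3, against 0.734 in the other cells. The Egfr difference was under 2-fold after division by the median ratio, at -0.79 on the log2 scale. Pdgfrl had 22 pulse UMIs and 42 trace UMIs.

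Chemokine and cytokine genes gave Lif and Il1r1 higher and Il33 lower among 9 at the floor, with a list median of 0.34. Il1r1, the receptor of interleukin 1, had 39.5 and 97.3 CPM, a ratio of 2.47 (1.56 to 4.12), and 1.80 (1.06 to 3.28) in sub-clusters 1 to 3. Il33, an alarmin, had 59.2 and 18.4 CPM, a ratio of 0.311 (0.190 to 0.514), near the 0.345 of the other cells. Lif rests on 6 pulse UMIs and on 1 trace cell with 25 of 87. Ccl2 had 306 and 308 CPM and Ccl7 had 194 and 245. Icam1, the adhesion molecule that inflammation induces, had 373 and 86.8 CPM over all members, a ratio of 0.233 (0.190 to 0.286), but 138 and 77.2 CPM and a ratio of 0.558 (0.382 to 0.836) in sub-clusters 1 to 3.

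Immediate early genes differed in direction. Of 14 at the floor Fos and Fosb were higher in trace, Hspa1b lower, and the list median was -0.15. Fos had 288 CPM in pulse and 732 in trace members, a ratio of 2.54 (2.14 to 3.03), and 2.11 (1.74 to 2.58) in sub-clusters 1 to 3, against 1.87 (1.80 to 1.94) in the other cells. Fosb had a ratio of 3.51 (2.57 to 4.91). Hspa1b, an inducible heat shock protein, had 6476 and 2540 CPM, a ratio of 0.392 (0.376 to 0.409), and 0.701 (0.693 to 0.709) in the other cells. Jun and Egr1 had ratios of 0.874 and 0.858. The part that dissociation of the tissue had in these values was not tested.

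**Figure D5:**
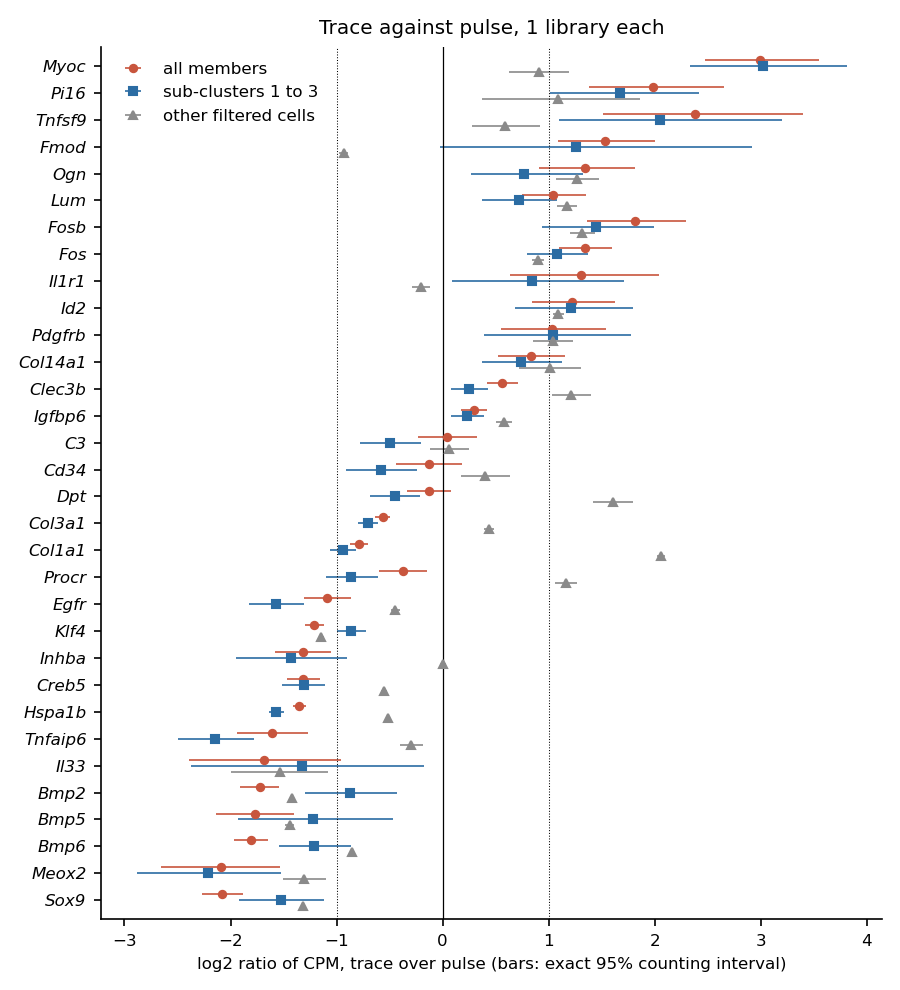
Ratio of CPM of summed UMIs, trace over pulse, on the log2 scale with exact 95% counting intervals, for 32 genes described in the text, in all members (red circles), sub-clusters 1 to 3 (blue squares) and the other filtered cells (grey triangles), 1 library per group. Dotted lines mark 2-fold. The rule genes Myoc and Pi16, and Tnfsf9, stand to the right of the other cells, Egfr, Creb5, Hspa1b, Tnfaip6 and Meox2 to their left, and for Fmod, Lum, Ogn, Bmp2 and Bmp6 the squares lie nearer to 0 than the circles.

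Markers of other cells differed between the libraries as well. Of 11 deeper chondrocyte markers at the floor 9 were at least 2-fold lower in trace members, where 13.3% of all genes were. The other cells had 10 of 13 lower, so this was not particular to the members. The summed level of the list was 4332 CPM in pulse members and 2012 in trace members. In sub-clusters 1 to 3 it was 1916 and 587 CPM, and in the other cells 27610 and 10550. Col2a1 was part of the rule and had 474 and 153 CPM in members. Leukocyte markers had a summed level of 17.8 CPM in pulse and 1444 in trace members, and 3 trace cells with 20 or more such UMIs held 97.1% of the UMIs. Ptprc, the pan-leukocyte gene, had 0 pulse UMIs and 3.95 CPM in trace. Haemoglobin and other erythroid genes summed to 519 and 39.5 CPM, and 1 pulse cell held all 64 Hba-a1 UMIs and all 145 Hbb-bs UMIs. Endothelial markers summed to 19.7 and 28.1 CPM, with Cdh5 at 0 UMIs in pulse, and of the tendon list Mkx was lower in trace, at 31.6 and 7.02 CPM. Mural markers summed to 272.5 and 260.5 CPM, with Tagln and Rgs5 past 2-fold higher and Cspg4 lower. The part of these cells in the ratios of the members was not tested.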

How the data were processed

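Single-cell RNA was counted in 2 libraries, pulse and trace, 1 of 3 pooled mice each. The matrices deposited by the authors hold UMI counts, not normalized, for called barcodes. Cell Ranger 7.1.0 wrote them, per the file headers. The submitters' processing notes instead give version 3.0.1 and the build mm10, and list Seurat, STAR, HTSeq and DESeq2, with no role given. Whether intron reads were counted is not given in the sources used here.

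The members, gene lists and comparisons were chosen with earlier results of these data known. Groups came from the sample labels. UMIs were summed over the cells of each group per library and scaled to CPM, and ratios carry exact conditional Poisson 95% intervals. With 1 library per group no test was possible. A gene was counted at 20 CPM or more in at least 1 group compared, and called at 2-fold in either direction. Where a gene had no UMI in a group, 3 UMIs stood in for its count. Lining cells had 2 or more lining genes, and Npy and Angptl7 cells 2 or more of Npy, Angptl7 and Ltbp2, both with at most 1 of the 6 fibroblast genes. Members were clustered (scanpy 1.11.5, leidenalg 0.10.2) without sex-linked and ribosomal RNA-associated genes, with 20 components, 15 neighbours and resolution 0.5. Scrublet marked 4 of 6533 pulse and 224 of 9247 trace cells; no cell was removed, and removal of the highest-scoring 5% was an alternative.

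Named genes were the rule genes, Col14a1, Procr and Tdtomato, the 20 leading genes, the 15 highest and 15 lowest ratios at 100 CPM or more, up to 5 per list by ratio and 5 by CPM, and 10 per sub-cluster, without predicted, mitochondrial, ribosomal protein and haemoglobin genes except where a list held them. Hba-a1 and Hbb-bs were named from the erythroid list, and Sparc was added with its values known. Poisson counts were simulated from the members' summed profile over 6612 genes, without variation between cells, mice or libraries. In them 84.4% of genes altered 2.5-fold, 98.4% altered 4-fold and 1.31% of unaltered genes were called. These rates cover counting error only and do not give the rate of false calls in the data. Sums and intervals used scipy 1.17.1 and numpy 2.4.6 under Python 3.11.15, and figures matplotlib 3.10.9. Alternatives varied the cell filter, the rule, depth, scaling, cell weights and floor.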

Additional observations from a re-analysis of the deposited data

Results flagged for a closer look

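Msmp was lower in trace than in pulse among the members, at -6.46 on the log2 scale, and higher in trace in the other filtered cells, at 4.19. The difference between members and other cells was not tested, and 1 pulse member held 249 of 254 Msmp UMIs. Among barcodes that failed the cell filter, 19 of 330 in pulse (5.76%) and 37 of 1176 in trace (3.15%) met the marker part of the rule. These barcodes entered no comparison.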

How the results depend on the processing

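The share of members in pulse and trace was 2.44% and 6.40% with at least 1000 genes per cell, 1.18% and 4.61% with 3 or more fibroblast genes, 2.37% and 4.92% with no lining gene, 1.68% and 5.85% after thinning to 2000 UMIs and 2.04% and 5.84% for sub-clusters 1 to 3, the last chosen after seeing the data. The 208 genes higher in trace became 450 with 3 or more fibroblast genes, 548 after thinning, 331 in sub-clusters 1 to 3, 432 after division by the median ratio, 339 without ribosomal RNA-associated and mitochondrial transcripts, 99 with a floor of 50 CPM and 701 with no floor. The 879 lower genes became 1407 after thinning, 448 after division by the median ratio, 476 with a floor of 50 CPM and 3536 with no floor. The direction turned for Efemp2 (1.18) and Pdgfrl (0.50) after thinning and for Lox (0.04) in sub-clusters 1 to 3, all on the log2 scale, where few pulse UMIs remain; the cause was not tested. Of 58 named genes past 2-fold, 42 stayed past it in sub-clusters 1 to 3, 46 with sub-clusters weighted alike and 51 after division by the median ratio. After thinning to 2000 UMIs 50 stayed past it. Leaving Pi16 and Myoc out of the rule, chosen after seeing the data, gave shares of 2.97% and 6.52% and 217 higher and 917 lower genes, and 55 of the 58 stayed past 2-fold. No paired analysis was possible because each group had 1 library.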

Other observations

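Few members carried cell cycle transcripts. In pulse 4.39% (2.03 to 8.17) and in trace 5.26% (3.67 to 7.27) had 2 or more UMIs of the cycle list, against 9.85% and 8.65% of the other cells, which were also deeper. Antioxidant and metal-binding genes were abundant in the members, with Mt1, a metallothionein, at 2209 CPM in pulse and 1641 in trace, a ratio of 0.743 (0.695 to 0.795), against 0.160 (0.157 to 0.162) in the other cells. Of 11 genes of that list at the floor, Sod1 and Aldh1a1 were at least 2-fold lower in trace members, Aldh1a1 with 14 and 12 UMIs. Of the parenchymal fibroblast list, 9 genes were at the floor, with Hmcn2 higher and Smoc2 lower in trace. Smoc2 had 195.5 and 84.2 CPM, held mostly by sub-cluster 5 at 837 and 504 CPM. Of 5 lipid genes at the floor Abca8a was higher, with 4 and 50 UMIs. The adipocyte and muscle lists had no gene at the floor in the members, and their summed levels were 5.92 and 1.32 CPM and 0 and 0.44 CPM in pulse and trace. The osteoblast list summed to 116.5 and 133 CPM, with Phex lower in trace, and the Schwann and perineurial list to 276 and 167.5 CPM.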
